A study of Mus musculus with 12 samples.

Results

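Integrins, laminins and the proteins that join laminin into basement membranes were followed through 6 days in mouse embryonic stem (ES) cells. They were the protein-coding genes of the deposited count table whose symbols begin with Itga or Itgb, or are Lama, Lamb or Lamc with a number, together with Nid1, Nid2, Hspg2, Agrn and Dag1. This gave 47 of 55335 genes, of which 21849 were protein-coding. The 47 comprised 11 laminin chains, 27 integrin subunits, 4 linker genes, dystroglycan and 4 genes that share the integrin symbols but encode no subunit.

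Polyadenylated RNA was sequenced at days 0, 2, 4 and 6 from 3 samples each, which gave 12 libraries. Every library carries the same label for its cells, mouse ES cells, and the same growth conditions: a medium with KnockOut serum replacement and the cytokine LIF, which sustains self-renewal, over gelatin and a feeder layer of irradiated mouse embryonic fibroblasts. The labels give no genotype, no age and no agent that sets day 2, 4 or 6 apart from day 0, so the later days are defined by time alone. They do not say whether feeder fibroblasts were removed before RNA was taken, or whether the replicates were separate cultures, so the spread behind each p-value is that among these libraries and could be technical only. They also do not say which question the time course was made to answer.

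A laminin is a cross-shaped heterotrimer of an α, a β and a γ chain, and laminins polymerise into the sheet on which a basement membrane is built. Nidogens and heparan sulphate proteoglycans tie that sheet to type IV collagen, while integrins, which are αβ heterodimers, and dystroglycan anchor it to the cell surface. In the early mouse embryo the trimer of α1, β1 and γ1 is the characteristic laminin, and parietal endoderm secretes it in quantity into the thick membrane called Reichert's membrane.

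Library totals ran from 6945900 to 13266962 counts, and 16468 genes, among them 40 of the 47, had enough counts to be tested. The label was set against marker genes. In the 3 libraries of each day, 8 pluripotency markers summed to 3927 to 3933 CPM (each count relative to the library total, scaled by trimmed mean of M-values, TMM) at day 0, 1140 to 1165 at day 2, 626 to 657 at day 4 and 541 to 578 at day 6. Over the same days, 13 markers of primitive and parietal endoderm that are not among the 47 genes summed to 1162 to 1191, 3771 to 3859, 9120 to 9203 and 12900 to 13560 CPM. Col4a1, Col4a2 and Sparc, themselves basement membrane genes, made up most of that sum, and the other 10 endoderm markers summed to 134 to 143, 665 to 671, 988 to 1016 and 916 to 937 CPM. Visceral endoderm markers, 10 in number, summed to 34.1 to 36.1, 263 to 290.2, 411 to 433 and 492 to 522 CPM. Fibroblast markers, 12 in number with 3 under 1 CPM on every day, summed to 22.5 to 25.6, 30.9 to 33.6, 57.5 to 61.6 and 209.9 to 228.7 CPM. The 9 endothelial markers summed to 100.2 to 104 CPM at day 6 and 259.7 to 278 CPM at day 0. All 9 were tested, and 4 were higher and 5 lower at day 6 than at day 0. Neural progenitor markers, 8 in number, summed to 109.5 to 120 CPM at day 6 and 78.11 to 83.97 CPM at day 0. Of the 7 tested, 5 were higher and 2 lower at day 6 than at day 0. The 11 markers of skeletal and cardiac muscle summed to 73.04 to 75.29 CPM at day 6 and 49.23 to 52.32 CPM at day 0. Of the 6 tested, 3 were higher and 3 lower. The part of any of these cell types in the results that follow was not tested, and in bulk RNA a change in the number of cells of a type and a change in RNA per cell cannot be told apart.

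The 47 genes took 0.336 to 0.340% of all counts in the day 0 libraries, 0.418 to 0.435% at day 2, 0.548 to 0.557% at day 4 and 0.651 to 0.664% at day 6. Their summed level averaged 3604, 4158, 5399 and 6528 CPM, and Lama1, Lamb1 and Lamc1 alone accounted for 1070, 2228, 3645 and 4323 CPM of it. Without those 3 laminin genes the sum at day 6 was thus smaller than at day 0. Genes were called higher or lower where edgeR's quasi-likelihood test gave a Benjamini-Hochberg adjusted p under 0.05 over all genes tested, and levels are given as day means ± SD (n = 3 libraries). At day 2 against day 0, 30 of the 40 tested genes passed, 14 higher and 16 lower, beside 68.1% of all genes tested, 34.9% higher and 33.2% lower. At day 4 against day 0, 31 passed, 14 higher and 17 lower, beside 73.6% of all genes, 37.5% higher and 36.1% lower. At day 6 against day 0, 34 passed, 18 higher and 16 lower, beside 76.9% of all genes, 39.4% higher and 37.5% lower. The shares of the 40 that passed were near those of all genes in these 3 comparisons, which share the day 0 libraries, and the median log2 change of the 40 at day 6 was -0.058, beside 0.017 for all genes. Over the 4 days together, 37 of the 40 differed, beside 89.2% of all genes, and the 3 that did not pass were Itga8, Lama2 and Itgb1bp2.

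In the last interval most calls were upward. At day 6 against day 4, 27 of the 40 passed, 22 higher and 5 lower, beside 42.9% of all genes, 23.6% higher and 19.3% lower. The median log2 change was 0.26 for the 40 and 0.016 for all genes. The count of 5 fell to 2 with DESeq2, and also without day 4 replicate 1 or without day 6 replicate 2. At day 4 against day 2, 19 passed, 9 higher and 10 lower, beside 50.1% of all genes, 25.3% higher and 24.8% lower. The steps from day 0 to day 2 and from day 4 to day 6 share no library. Of the 16 genes lower at the first of them, 9 were higher at the last, which is 56.2% of the 16 and 40.9% of the 22 higher at the last, beside 23.9% and 33.6% among all genes. Among them were Agrn, Hspg2, Itga1, Itga2b, Lama5, Lamb2, Nid1 and Nid2, of which Hspg2 and Itga2b lost the call at the last step in 10 and 9 alternatives. Of the 14 genes higher at the first step, 10 were higher again at the last, which is 71.4% of the 14 and 45.5% of the 22, beside 27.3% and 40.2% among all genes. Of all 40, 55% were higher at the last step whatever their call at the first, so the 56.2% is near the rate of the whole set.

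**Figure D1:**
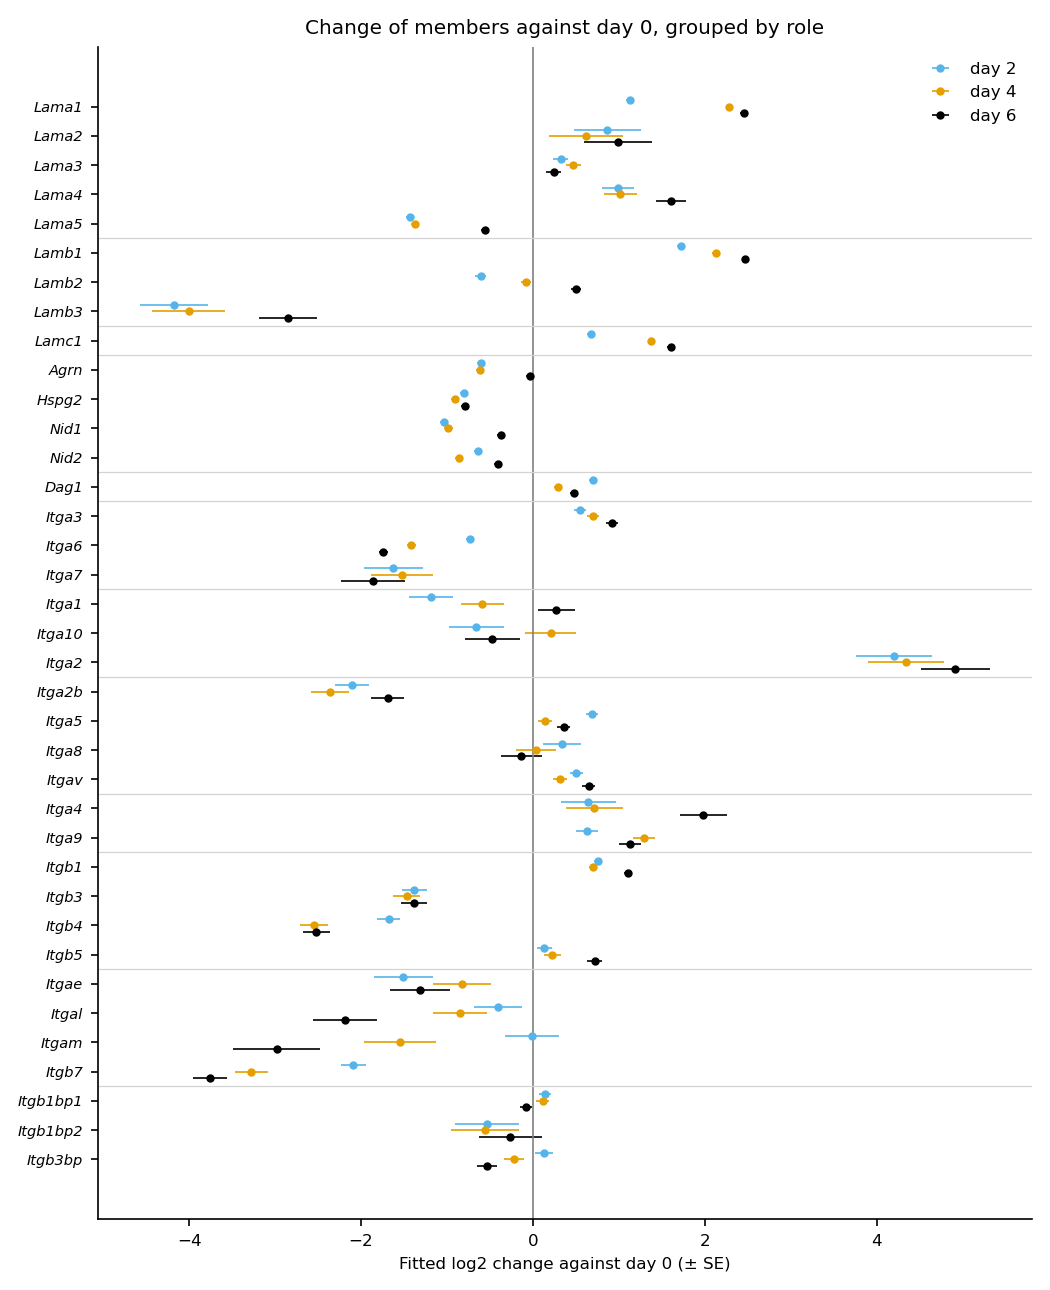
Fitted log2 change against day 0 (x axis, bars ± SE) of the tested genes shown, at day 2, day 4 and day 6, grouped by role from laminin chains at the top to the genes matched only by name at the bottom. Itgb6 and Itgb8, with 3 counts or fewer over the day 0 libraries, are left out. Lama1, Lamb1 and Itga2 lie far to the right at day 6, and Lamb3, Itgb4 and Itgb7 far to the left. The day 0 level of Itga2 rests on 4 counts.

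Promoter sequence is shown for a pair of genes that were higher at day 6, Lamb1 and Itgb1, and a pair that were lower, Lama5 and Itgb7, as examples of each direction among laminin chains and integrin β subunits. Each line holds the 250 bases before the RefSeq transcription start (GRCm38.p6), 5′ to 3′ on the gene's own strand, with GC boxes (GGGCGG or its complement CCGCCC) and CCAAT boxes (CCAAT or ATTGG) in capitals. They lie at chr12:31265043-31265292 on the plus strand, chr8:128685404-128685653 on the plus strand, chr2:180225860-180226109 on the minus strand and chr15:102231936-102232185 on the minus strand.
Lamb1: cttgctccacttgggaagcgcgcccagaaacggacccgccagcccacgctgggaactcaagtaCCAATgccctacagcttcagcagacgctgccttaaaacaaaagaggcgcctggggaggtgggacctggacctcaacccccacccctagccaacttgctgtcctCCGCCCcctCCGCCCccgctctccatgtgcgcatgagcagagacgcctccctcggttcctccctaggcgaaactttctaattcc
Itgb1: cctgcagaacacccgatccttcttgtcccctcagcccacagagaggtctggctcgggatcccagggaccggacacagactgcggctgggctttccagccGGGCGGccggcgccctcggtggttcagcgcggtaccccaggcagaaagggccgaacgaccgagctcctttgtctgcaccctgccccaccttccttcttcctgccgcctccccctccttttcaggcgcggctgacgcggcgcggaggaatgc
Lama5: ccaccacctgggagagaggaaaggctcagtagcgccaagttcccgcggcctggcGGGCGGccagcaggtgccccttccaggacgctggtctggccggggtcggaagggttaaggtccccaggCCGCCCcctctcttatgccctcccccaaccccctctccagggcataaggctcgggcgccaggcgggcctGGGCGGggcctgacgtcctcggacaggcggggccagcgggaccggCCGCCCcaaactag
Itgb7: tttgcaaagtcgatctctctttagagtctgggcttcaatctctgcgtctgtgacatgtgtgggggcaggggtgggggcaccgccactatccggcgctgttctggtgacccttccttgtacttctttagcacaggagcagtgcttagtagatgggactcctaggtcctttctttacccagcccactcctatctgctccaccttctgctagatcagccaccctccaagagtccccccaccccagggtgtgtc

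The Lamb1 sequence holds 2 GC boxes close together and 1 CCAAT box further upstream. The Lama5 sequence holds 4 GC boxes, that of Itgb1 holds 1, and that of Itgb7 holds neither motif. Windows of 300 bases, with 50 bases after the start added, were on hand for 31 of the 47 genes, 36 windows in all. CG dinucleotides numbered 18 in the window of Lamb1, 27 in that of Itgb1, 24 in that of Lama5 and 5 in that of Itgb7, where the median over all windows was 7. A GC box on either strand was found in 52.8% of the 36 windows and in 35.7% of all 32851 windows. A CCAAT box was found in 22.2% of the 36, against 37.4% of all. The letters AGGTCA, only a part of a binding site of retinoic acid receptors, were found in 1 of the 36 windows (2.78%) and in 16.3% of all. The letters AGATAA, bound by GATA factors, were found in 2 of the 36 windows (5.56%) and in 11.2% of all. A GC box was present for 10 of 14 genes with a window that were higher at day 6 than at day 0, and for 4 of 8 that were lower. No window was used for Lama1 or Lamc1. These matches describe the letters of the windows and were not linked to the levels by any test.

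The 3 chains of the embryonic trimer rose together. Lama1 (ENSMUSG00000032796.8, chromosome 17, 67697259 to 67822647, plus strand, GRCm38) encodes the α1 chain, which carries the globular domains that integrins and dystroglycan bind. It had 196, 182 and 192 CPM in the libraries of day 0, 418, 421 and 409.7 at day 2, 916, 939.7 and 933 at day 4, and 1045, 1053 and 1029 at day 6. Each day stood above the day before without overlap. Lama1 was 5.48-fold higher at day 6 than at day 0 (log2 2.45 ± 0.045, edgeR adjusted p = 4.14e-35) and rose by similar folds in the earlier steps, 2.19-fold at day 2 against day 0 and 2.23-fold at day 4 against day 2 (log2 1.16 ± 0.042, edgeR adjusted p = 3.88e-24). At day 6 against day 4 it was 1.12-fold higher (log2 0.17 ± 0.041, edgeR adjusted p = 0.00110).

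Lamb1 (ENSMUSG00000002900.16, chromosome 12, 31265234 to 31329644, plus strand) encodes the β1 chain, which joins the trimer through its coiled coil. It had 238, 237 and 242 CPM in the libraries of day 0, 759, 792 and 812 at day 2, 1027, 1057 and 1060 at day 4, and 1327, 1334 and 1324 at day 6. The days did not overlap here either, and the step at day 2 was the largest of the course for this gene. Lamb1 was 3.30-fold higher at day 2 than at day 0 (log2 1.72 ± 0.044, edgeR adjusted p = 9.48e-30), 1.33-fold higher at day 4 than at day 2 (log2 0.41 ± 0.041, edgeR adjusted p = 7.77e-11) and 1.27-fold higher at day 6 than at day 4 (log2 0.34 ± 0.041, edgeR adjusted p = 9.10e-09). Over the whole course it was 5.56-fold higher at day 6 (log2 2.48 ± 0.045, edgeR adjusted p = 2.99e-35).

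Lamc1 (ENSMUSG00000026478.14, chromosome 1, 153218922 to 153332786, minus strand) encodes the γ1 chain, which holds the site that nidogen binds. It had 651, 621 and 649.5 CPM in the libraries of day 0, 1019, 1051 and 1001 at day 2, 1624, 1698 and 1682 at day 4, and 1903, 1992 and 1962 at day 6. It was the most abundant of the 47 genes in CPM on every day, and its days did not overlap. It was 3.05-fold higher at day 6 than at day 0 (log2 1.61 ± 0.044, edgeR adjusted p = 2.53e-29). Its fold was smaller than those of Lama1 and Lamb1, which lay within 1 SE of each other on the log2 scale.

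The chains did not keep a fixed proportion. Per kb of exon, the CPM of Lamc1 over that of Lama1 was 3.94 ± 0.050 at day 0, 2.88 ± 0.037 at day 2, 2.1 ± 0.023 at day 4 and 2.19 ± 0.053 at day 6. The ratio of Lamb1 to Lama1 was 1.23 ± 0.043, 1.85 ± 0.082, 1.10 ± 0.0080 and 1.24 ± 0.010 on those days. This ratio was highest at day 2, and that at day 6 overlapped that at day 0 (1.24 to 1.26 against 1.18 to 1.27). In all 12 libraries, per kb, Lamc1 was above Lamb1 and Lamb1 above Lama1.

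**Figure D2:**
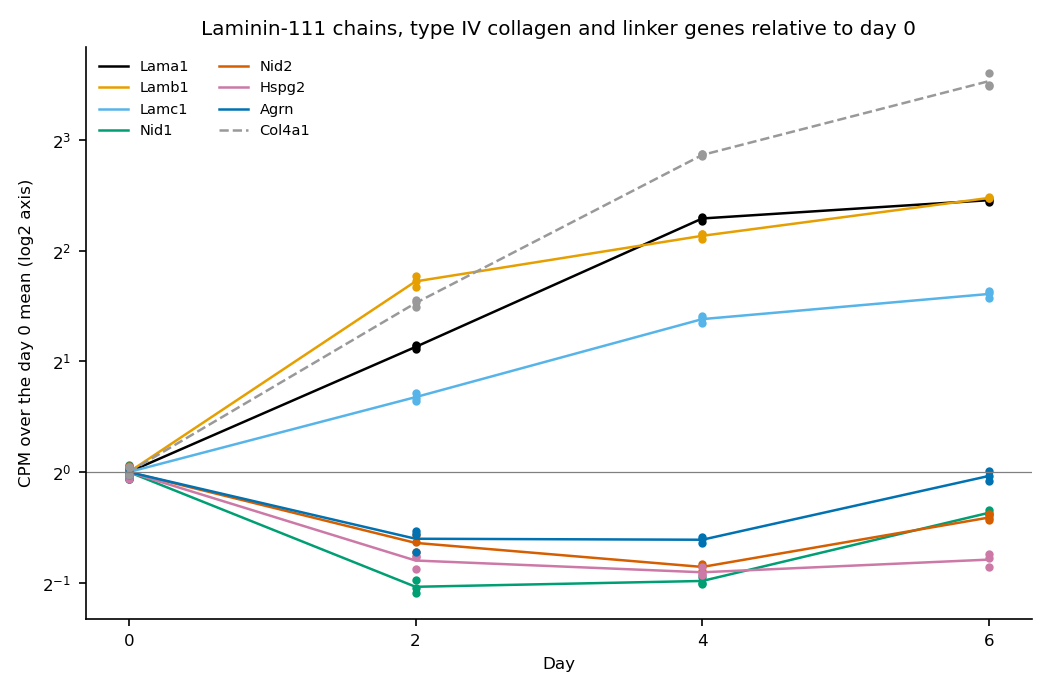
CPM of each library divided by the gene's day 0 mean (y axis, log2 scale) by day, with a line through the day means, for the chains of the α1β1γ1 laminin (Lama1, Lamb1, Lamc1), the type IV collagen gene Col4a1 (dashed) and the linker genes. At day 6 the laminin genes and Col4a1 lie above the day 0 line in all libraries, and Nid1, Nid2 and Hspg2 below it.

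The α5 chain ran against the α1 chain. Lama5 (ENSMUSG00000015647.9), whose product is the laminin α chain that sustains ES cells in culture and replaces α1 in most mature epithelia, had 197, 198 and 203 CPM in the libraries of day 0, 79.04, 67.8 and 75.4 at day 2, 78.5, 73.7 and 79.9 at day 4, and 134, 138 and 136 at day 6. Day 0 lay above every later library, days 2 and 4 overlapped, and day 6 lay between. Lama5 was 2.69-fold lower at day 2 than at day 0 (log2 -1.43 ± 0.050, edgeR adjusted p = 2.68e-25) and was then 1.76-fold higher at day 6 than at day 4 (log2 0.81 ± 0.052, edgeR adjusted p = 4.54e-16), which left it 1.47-fold lower at day 6 than at day 0 (log2 -0.56 ± 0.048, edgeR adjusted p = 2.37e-13).

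Per kb of exon, Lama1 made up 49.99 ± 1.0% of the summed α chain signal at day 0, 82.1 ± 0.99% at day 2, 90.7 ± 0.30% at day 4 and 87.8 ± 0.11% at day 6. Lama5 made up 44.6 ± 0.84%, 12.4 ± 0.90%, 6.42 ± 0.30% and 9.74 ± 0.14%. The α chain signal as a whole was 39.3 ± 0.90, 52.3 ± 0.61, 105.9 ± 1.2 and 122.5 ± 1.3 CPM per kb. Nearly equal levels of Lama1 and Lama5 at day 0 (a per-kb ratio of 1.12 ± 0.044) were thus followed by a ratio of 14.2 ± 0.74 at day 4 and 9.02 ± 0.13 at day 6.

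The other α chains were low. Lama3, the α chain of the epithelial laminin of hemidesmosomes, averaged 19.9 ± 1.8, 24.8 ± 0.68, 27.5 ± 0.42 and 23.4 ± 1.1 CPM at days 0, 2, 4 and 6, and it was higher at day 4 than at day 0 (log2 0.47 ± 0.086, edgeR adjusted p = 7.57e-06). Lama4, a chain typical of blood vessel membranes, averaged 2.76 ± 0.16, 5.47 ± 0.20, 5.59 ± 0.082 and 8.33 ± 0.96 CPM at days 0, 2, 4 and 6 and was 3.06-fold higher at day 6 than at day 0 (log2 1.61 ± 0.17, edgeR adjusted p = 8.87e-11). Lama2, the muscle chain, was between 0.716 and 1.43 CPM in the day means, on 17 to 47 counts per day. It was called higher at day 6 than at day 0 (log2 0.99 ± 0.39, edgeR adjusted p = 0.0218), a call lost with DESeq2 (log2 1.00), without day 0 replicate 1 (log2 0.63) and without day 6 replicate 3 (log2 0.82). Its call at day 2 was lost in 12 alternatives, and without day 0 replicate 1 its log2 change there was 0.50 (edgeR adjusted p = 0.299).

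Among β chains, Lamb2 moved in a V. Lamb2 (ENSMUSG00000052911.9), the β2 chain of kidney and neuromuscular membranes, had 73.5, 69.05 and 67.8 CPM in the libraries of day 0, 44.6, 46.7 and 46.9 at day 2, 63.98, 69.5 and 65.9 at day 4, and 98.2, 107 and 92.4 at day 6. The lowest libraries were those of day 2 and the highest those of day 6, and days 4 and 0 overlapped. It was 1.52-fold lower at day 2 than at day 0 (log2 -0.61 ± 0.061, edgeR adjusted p = 2.24e-11) and 1.41-fold higher at day 6 than at day 0 (log2 0.50 ± 0.057, edgeR adjusted p = 3.37e-10). Per kb, Lamb1 rose to 91.3 ± 0.091% of the β chain signal at day 2, against 66.6 ± 1.1% at day 0, and stood at 89.1 ± 0.68% at day 6.

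The β3 chain pairs with the α chain encoded by Lama3. Lamb3, the gene of that chain, averaged 3.66 ± 0.52, 0.189 ± 0.11, 0.208 ± 0.075 and 0.472 ± 0.23 CPM at days 0, 2, 4 and 6, on 89, 7, 6 and 16 counts per day, and was lower at day 6 than at day 0 (log2 -2.85 ± 0.34, edgeR adjusted p = 1.02e-09). With so few counts after day 0, Lamb3 can reach the test through day 0 alone. Lama3 itself was higher at day 6 than at day 0 (log2 0.24 ± 0.087, edgeR adjusted p = 0.0116), a call lost without day 0 replicate 1 or 2 or day 6 replicate 1. At day 6 against day 4, a step with fewer lower calls in some alternatives, Lama3 was lower (log2 -0.23 ± 0.080, edgeR adjusted p = 0.0184). Lamc3 had 1 to 8 counts per day and was not tested.

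**Figure D3:**
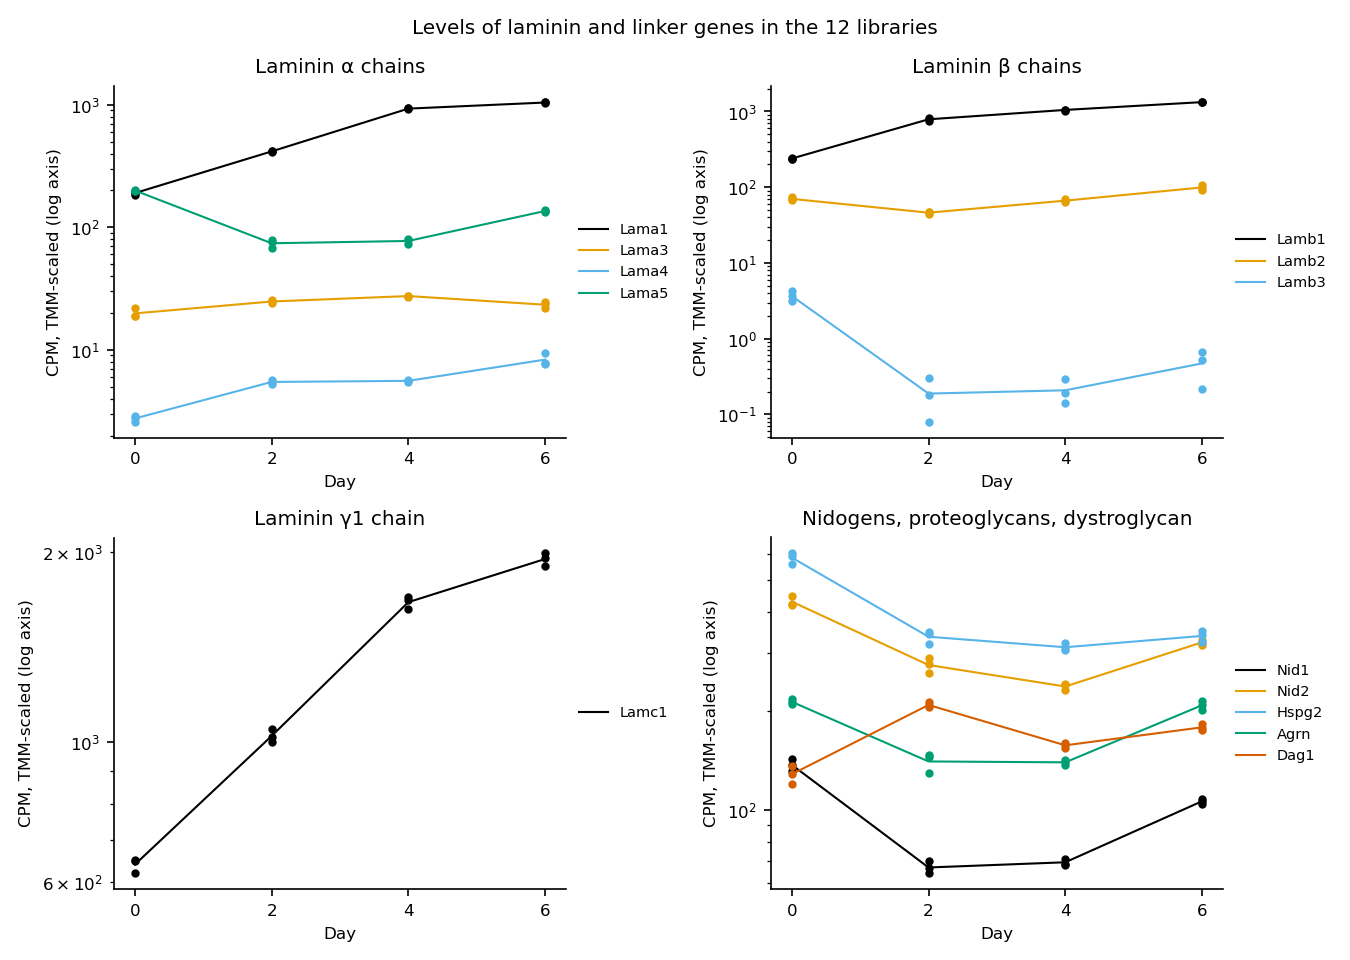
TMM-scaled CPM of laminin and linker genes in each library (y axis, log scale) by day, with lines through the day means. Lama1, Lamb1 and Lamc1 climb through the 4 days, while Lama5, Nid1, Nid2, Hspg2 and Agrn are lowest at day 2 or day 4.

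The 4 linker genes all fell at day 2 and were all higher at day 6 than at day 4. For Hspg2 that last rise was 1.08-fold, a call lost in some alternatives. Nidogens bind the laminin γ1 chain on one side and type IV collagen on the other. Nid1 (ENSMUSG00000005397.8) had 138, 143 and 131 CPM in the libraries of day 0, 69.9, 64.4 and 66.7 at day 2, 68.3, 68.8 and 71.3 at day 4, and 105, 108 and 106 at day 6. Days 2 and 4 overlapped at the bottom, and day 6 lay below day 0. Nid1 was 2.05-fold lower at day 2 than at day 0 (log2 -1.03 ± 0.049, edgeR adjusted p = 7.33e-21) and 1.53-fold higher at day 6 than at day 4 (log2 0.62 ± 0.051, edgeR adjusted p = 7.68e-13).

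Nid2 (ENSMUSG00000021806.4) had 421, 446 and 423 CPM in the libraries of day 0, 278, 260.3 and 289.5 at day 2, 242, 231 and 239.5 at day 4, and 329.9, 318 and 322 at day 6. Its days did not overlap, and day 4 was the lowest. It was 1.81-fold lower at day 4 than at day 0 (log2 -0.86 ± 0.045, edgeR adjusted p = 1.25e-19) and 1.36-fold higher at day 6 than at day 4 (log2 0.45 ± 0.045, edgeR adjusted p = 1.67e-10). Exons of Nid2 share 437 bases with those of Rtraf on the other strand, and whether counting used the strand is not stated, so reads in those bases cannot be told apart. Rtraf averaged 93.3 CPM at day 6 and 122 CPM at day 0.

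Perlecan, the product of Hspg2, is a large heparan sulphate proteoglycan that binds laminin, nidogen and growth factors. Hspg2 (ENSMUSG00000028763.18) had 593, 602 and 559.8 CPM in the libraries of day 0, 343, 319.8 and 346 at day 2, 323, 306 and 308 at day 4, and 350.1, 341 and 324 at day 6. Day 0 stood above all later libraries, and day 2 overlapped days 4 and 6. It was 1.73-fold lower at day 6 than at day 0 (log2 -0.79 ± 0.045, edgeR adjusted p = 1.17e-18). Its 1.08-fold higher level at day 6 than at day 4 (log2 0.12 ± 0.046, edgeR adjusted p = 0.0403) lost the call in 10 alternatives, such as library size alone as scaling (edgeR adjusted p = 0.106).

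Agrin, a proteoglycan that binds laminin and dystroglycan, stood near its day 0 level at day 6. Agrn (ENSMUSG00000041936.18) had 218, 209.8 and 212 CPM in the libraries of day 0, 145, 129.8 and 147 at day 2, 142, 137 and 140 at day 4, and 209, 215 and 202 at day 6. Days 2 and 4 overlapped below, and days 6 and 0 overlapped above. It was 1.52-fold lower at day 2 than at day 0 (log2 -0.60 ± 0.047, edgeR adjusted p = 2.26e-14) and 1.49-fold higher at day 6 than at day 4 (log2 0.58 ± 0.047, edgeR adjusted p = 6.32e-13), while day 6 against day 0 did not pass (log2 -0.035 ± 0.046, edgeR adjusted p = 0.492). Per kb, the ratio of Hspg2 to Agrn was 1.05 ± 0.030 at day 6, against 1.78 ± 0.077 at day 0.

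Dystroglycan is a receptor for laminin globular domains outside the integrin family. Its gene Dag1 (ENSMUSG00000039952.15) had 120.4, 136 and 129 CPM in the libraries of day 0, 205, 208 and 213 at day 2, 155, 158 and 160 at day 4, and 183, 177 and 175 at day 6. No days overlapped, and day 2 was the highest. It was 1.62-fold higher at day 2 than at day 0 (log2 0.70 ± 0.046, edgeR adjusted p = 1.74e-16), then 1.33-fold lower at day 4 than at day 2 (log2 -0.41 ± 0.045, edgeR adjusted p = 7.29e-10), and at day 6 was 1.39-fold higher than at day 0 (log2 0.48 ± 0.047, edgeR adjusted p = 9.78e-12). A list of other genes of the dystrophin complex and of the enzymes that build the laminin-binding sugar of dystroglycan had 23 tested genes, of which 14 were higher (60.9%) and 5 lower (21.7%) at day 6 than at day 0, beside 39.4% higher and 37.5% lower among all genes (median log2 0.53, beside 0.017 for all genes). Utrn, the dystrophin relative that links dystroglycan to actin, averaged 75.9 ± 3.6, 71.7 ± 1.0, 81.2 ± 0.54 and 117 ± 0.77 CPM at days 0, 2, 4 and 6 and was higher at day 6 (log2 0.63 ± 0.049, edgeR adjusted p = 1.65e-14). Sntb2, a syntrophin, was lower, with 98.8 ± 1.9, 59.9 ± 4.5, 41.9 ± 1.6 and 49.9 ± 2.2 CPM at days 0, 2, 4 and 6 (log2 -0.99 ± 0.058, edgeR adjusted p = 2.43e-18).

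Itga6 fell and Itga3 rose, so that per kb of exon, though not in CPM, Itga3 stood above Itga6 at day 6. Itga6 (ENSMUSG00000027111.16, chromosome 2, 71745616 to 71858416, plus strand) encodes α6, the main laminin receptor subunit of ES cells, which pairs with β1 or β4. It had 224, 220.4 and 226 CPM in the libraries of day 0, 134, 133 and 138 at day 2, 82.7, 79.9 and 90.3 at day 4, and 69.4, 63.1 and 67.9 at day 6. The days did not overlap, and each was below the day before. Itga6 was 3.34-fold lower at day 6 than at day 0 (log2 -1.74 ± 0.050, edgeR adjusted p = 1.24e-28). Itga3, the other α subunit of common laminin receptors, averaged 27.1 ± 1.6, 39.5 ± 0.72, 44.3 ± 2.2 and 51.3 ± 1.8 CPM at days 0, 2, 4 and 6 and was 1.89-fold higher at day 6 than at day 0 (log2 0.92 ± 0.069, edgeR adjusted p = 4.97e-15), with no overlap between days. Per kb, the ratio of Itga6 to Itga3 was 5.23 ± 0.26 at day 0, 2.16 ± 0.040 at day 2, 1.204 ± 0.032 at day 4 and 0.825 ± 0.062 at day 6. Itga7, the muscle laminin receptor, averaged 2.28 ± 0.93, 0.724 ± 0.23, 0.814 ± 0.16 and 0.637 ± 0.12 CPM at days 0, 2, 4 and 6 and was lower at day 6 than at day 0 (log2 -1.86 ± 0.37, edgeR adjusted p = 2.24e-05). With so few counts after day 0, Itga7 can reach the test through day 0 alone. Only a lower call against day 0 is then open to it.

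Of the α subunits that recognise the Arg-Gly-Asp motif of fibronectin and vitronectin, Itga5 and Itgav rose by less than 1 log2 unit. Itga5 (ENSMUSG00000000555.8), the fibronectin receptor subunit, had 33.5, 31.9 and 32.02 CPM in the libraries of day 0, 53.9, 48.9 and 54.6 at day 2, 38.2, 36.8 and 31.8 at day 4, and 41.9, 44.6 and 38.5 at day 6. Day 2 stood above the other days, and days 4 and 0 overlapped. It was 1.61-fold higher at day 2 than at day 0 (log2 0.69 ± 0.072, edgeR adjusted p = 6.87e-11) and 1.28-fold higher at day 6 than at day 0 (log2 0.36 ± 0.076, edgeR adjusted p = 5.49e-05). Itgav, which pairs with several β subunits, averaged 21.8 ± 0.099, 30.9 ± 0.76, 27.2 ± 0.66 and 34.1 ± 1.7 CPM at days 0, 2, 4 and 6 and was 1.57-fold higher at day 6 than at day 0 (log2 0.65 ± 0.077, edgeR adjusted p = 9.05e-10). Itga2b, the platelet fibrinogen receptor subunit, averaged 7.48 ± 1.1, 1.73 ± 0.20, 1.42 ± 0.27 and 2.30 ± 0.13 CPM at days 0, 2, 4 and 6 and was lower at day 6 than at day 0 (log2 -1.69 ± 0.19, edgeR adjusted p = 3.95e-10). Of 8 megakaryocyte and platelet markers, 7 were under 1 CPM on every day, and Gp9 and Gp6 had no count in any library. Itga8 was between 2.92 and 3.95 CPM in the day means.

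Collagen-binding α subunits were all under 6 CPM, and Itga2 rose. Itga2 had 4 counts over the day 0 libraries and 119, 99 and 170 counts over those of days 2, 4 and 6, with 0.155 ± 0.17, 3.25 ± 0.39, 3.61 ± 0.36 and 5.39 ± 0.76 CPM at days 0, 2, 4 and 6. It was higher at day 2 than at day 0 (log2 4.21 ± 0.44, edgeR adjusted p = 8.13e-11) and at day 6 (log2 4.92 ± 0.40, edgeR adjusted p = 4.47e-14), on a day 0 level that rests on those 4 counts. With so few counts at day 0, Itga2 can reach the test through the later days alone. Only a higher call against day 0 is then open to it. Itga1 averaged 3.40 ± 1.2, 1.47 ± 0.038, 2.30 ± 0.51 and 4.05 ± 0.25 CPM at days 0, 2, 4 and 6, and it was lower at day 2 than at day 0 (log2 -1.19 ± 0.26, edgeR adjusted p = 1.07e-04) and higher at day 6 than at day 4 (log2 0.86 ± 0.23, edgeR adjusted p = 0.00222). Its exons share 685 bases on the same strand with the gene model Gm49395, which averaged 17.3 CPM at day 6 and 14.4 CPM at day 0, so Itga1 is uncertain. Itga10 lay between 1.06 and 1.99 CPM in the day means, on 39 to 54 counts per day. It was called higher at day 4 than at day 2 (log2 0.865 ± 0.301, edgeR adjusted p = 0.0158). Itga10 shares 33.5% of its exon length with the gene model Gm42957, and is uncertain for that reason. Itga11 had 11 to 35 counts per day and was not tested. The subunits of the α4 and α9 class, which bind fibronectin splice segments, VCAM1 and tenascin, were both higher at day 6. Itga9 averaged 5.89 ± 0.52, 9.18 ± 0.51, 14.5 ± 0.10 and 12.9 ± 0.50 CPM at days 0, 2, 4 and 6 (log2 1.13 ± 0.13, edgeR adjusted p = 2.98e-10 at day 6 against day 0). Itga4 averaged 1.03 ± 0.12, 1.63 ± 0.27, 1.72 ± 0.24 and 4.04 ± 0.62 CPM at days 0, 2, 4 and 6 (log2 1.98 ± 0.27, edgeR adjusted p = 2.56e-08). Exons of Itga4 share 1124 bases with those of Cerkl on the other strand, which averaged 3.01 CPM at day 6 and 4.46 CPM at day 0, so Itga4 is uncertain too.

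Itgb1, the β partner of most laminin, collagen and fibronectin receptors, was the main β gene throughout. Itgb1 (ENSMUSG00000025809.15, chromosome 8, 128685654 to 128733200, plus strand) had 208, 195 and 212 CPM in the libraries of day 0, 345, 348 and 346 at day 2, 320.2, 340.5 and 336 at day 4, and 456, 423 and 442 at day 6. No days overlapped: day 0 was the lowest and day 6 the highest. It was 1.69-fold higher at day 2 than at day 0 (log2 0.76 ± 0.046, edgeR adjusted p = 1.04e-17) and 1.33-fold higher at day 6 than at day 4 (log2 0.41 ± 0.044, edgeR adjusted p = 7.76e-10), while day 4 against day 2 did not pass (log2 -0.061 ± 0.044, edgeR adjusted p = 0.260). Per kb, it made up 89.0 ± 0.28% of the β subunit signal at day 6, against 74.3 ± 1.4% at day 0.

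Summed per kb, α subunits gave 42.9 ± 0.34, 39.4 ± 1.4, 31.4 ± 0.38 and 32.6 ± 0.61 CPM per kb at days 0, 2, 4 and 6, and β subunits 67.6 ± 1.9, 95.4 ± 0.38, 91.4 ± 3.6 and 121 ± 4.2. At day 6 the α sum was lower and the β sum higher than at day 0, and the libraries of those days did not overlap. Itga6 made up 57.7 ± 0.58% of the α signal at day 0, 38.0 ± 0.88% at day 2, 29.7 ± 1.6% at day 4 and 22.7 ± 1.3% at day 6. At day 6 the libraries of Itga3 (27.1 to 28.1%) and Itga5 (24.4 to 27.4%) overlapped, and those of Itga6 (21.2 to 23.6%) lay below both.

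**Figure D4:**
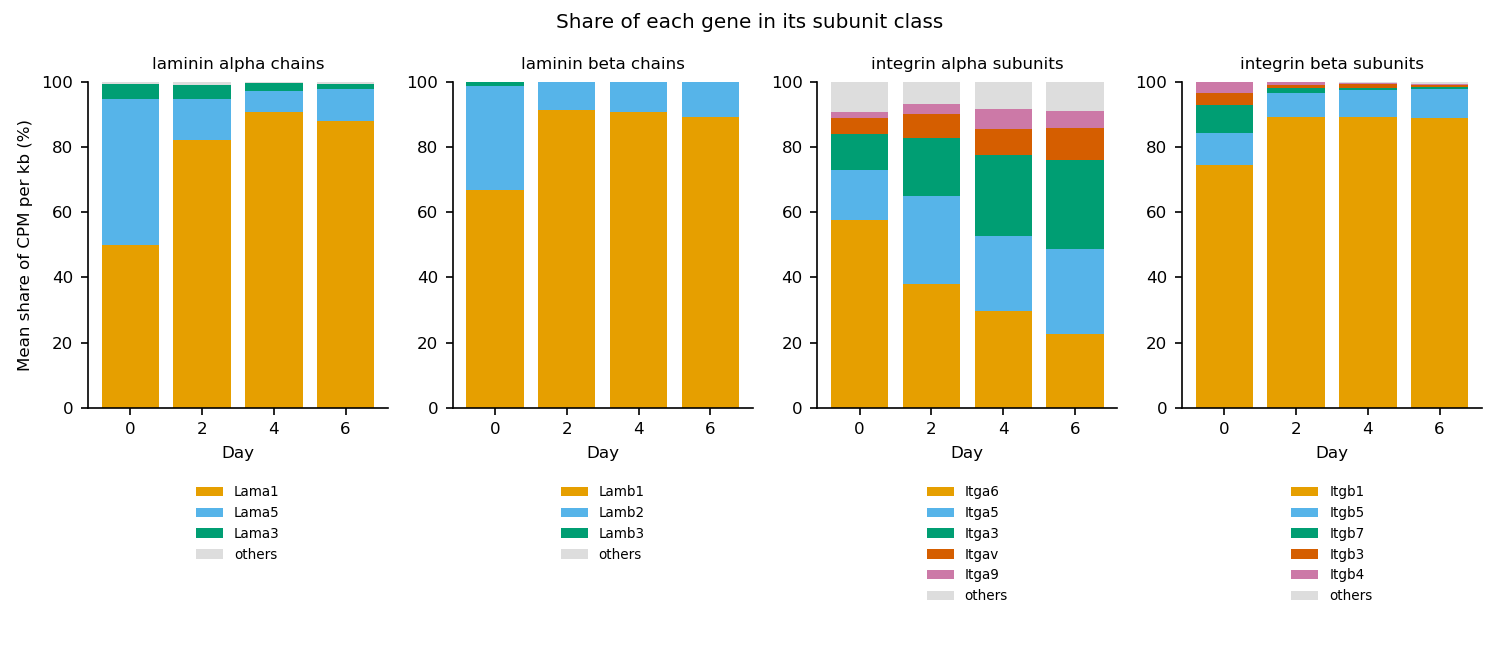
Mean share (y axis, percent, n = 3 libraries) of each gene in the CPM per kb of exon of its subunit class, by day, as stacked bars. Lama1 and Lamb1 fill nearly the whole bar of their class from day 2 or day 4 on, and Itga6 shrinks from day to day.

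Itgb4, the partner of α6 in hemidesmosomes, fell. It (ENSMUSG00000020758.15) had 14.1, 16.3 and 15.3 CPM in the libraries of day 0, 5.61, 4.50 and 4.001 at day 2, 2.90, 2.59 and 2.13 at day 4, and 2.84, 2.27 and 2.73 at day 6. All day 0 libraries lay above the rest, and days 6 and 4 overlapped. It was 5.73-fold lower at day 6 than at day 0 (log2 -2.52 ± 0.16, edgeR adjusted p = 1.93e-17). Itgb3, a partner of αv and αIIb, averaged 15.1 ± 0.99, 5.78 ± 1.6, 5.58 ± 1.3 and 5.81 ± 0.25 CPM at days 0, 2, 4 and 6 and was 2.60-fold lower at day 6 than at day 0 (log2 -1.38 ± 0.15, edgeR adjusted p = 1.24e-10). Itgb5, another αv partner, averaged 23.3 ± 1.4, 25.5 ± 2.3, 27.03 ± 4.0 and 38.3 ± 1.0 CPM at days 0, 2, 4 and 6 and was higher at day 6 than at day 0 (log2 0.72 ± 0.087, edgeR adjusted p = 1.78e-09).

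Itgb6 and Itgb8, which encode αv partners that activate latent TGF-β, came up from almost no counts. Each can reach the test through the later days alone. Itgb6 had 0, 2, 22 and 90 counts over the 3 libraries of days 0, 2, 4 and 6. Against a floor of 3 counts summed over the day 0 libraries, it was at least 22.75-fold higher at day 6 and at least 6.43-fold higher at day 4 (edgeR adjusted p = 5.63e-11 and 1.83e-05 against day 0). Itgb8 had 2, 16, 27 and 45 counts on those days. Its CPM at day 6 was 17.1 times that at day 0, with a 95% exact counting interval of 4.46 to 145 that covers counting error only (edgeR adjusted p = 9.14e-07). Its call at day 2 was lost with DESeq2 (adjusted p = 0.0568) and without day 0 replicate 3 (edgeR adjusted p = 0.0734).

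**Figure D5:**
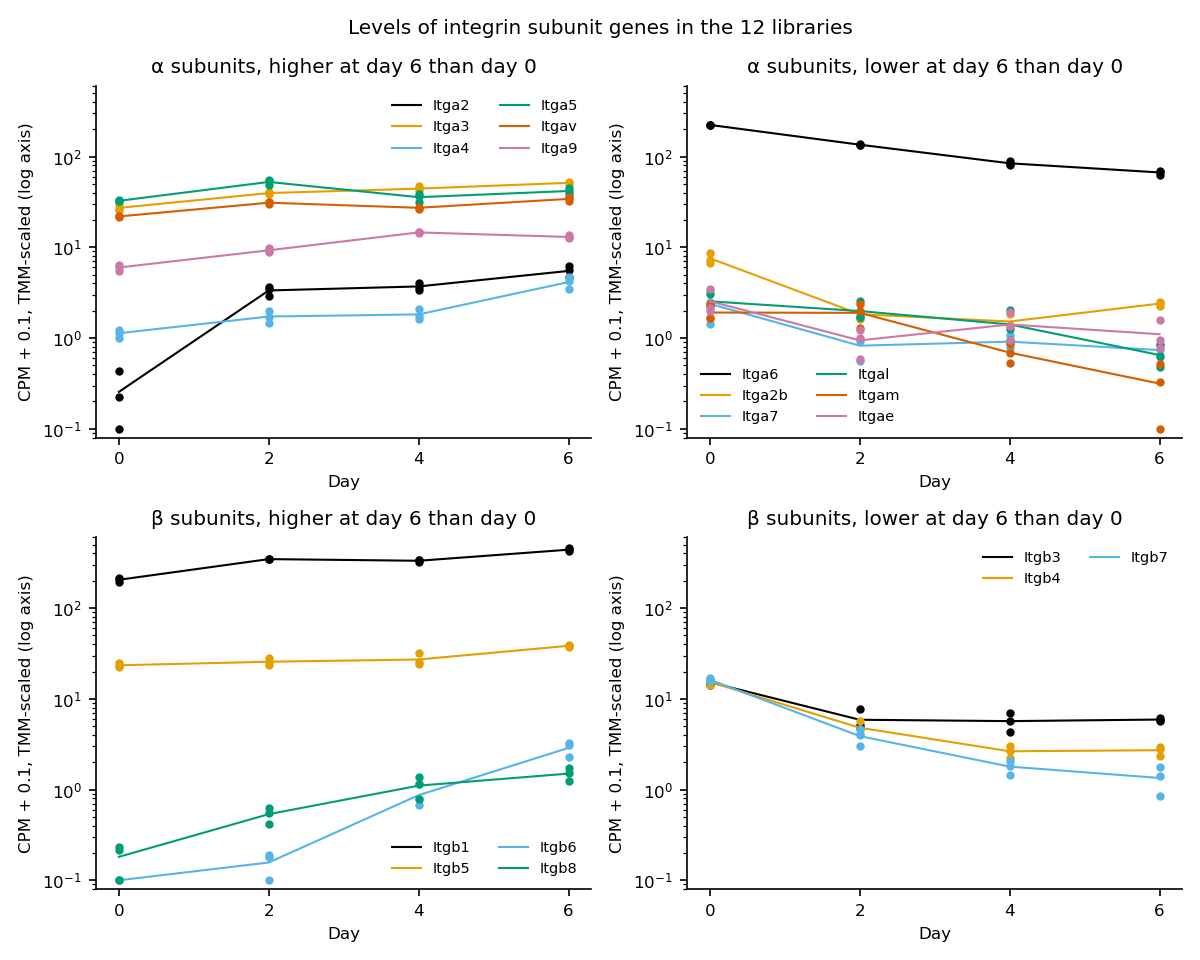
TMM-scaled CPM plus 0.1 of integrin subunit genes in each library (y axis, log scale) by day, with lines through the day means, for α and β subunits called higher or lower at day 6 than at day 0. Points at 0.1 are libraries with no count, as for Itgb6 at day 0. Itga6 and Itgb1 lie well above the other subunits of their panels.

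Subunits of leukocyte integrins were low, and those tested fell. Itgb7 (ENSMUSG00000001281.10), which pairs with α4 or αE in lymphocytes, had 16.7, 15.8 and 15.9 CPM in the libraries of day 0, 4.55, 2.89 and 3.91 at day 2, 1.35, 1.73 and 1.99 at day 4, and 0.748, 1.30 and 1.68 at day 6. Day 0 lay above all other days and day 2 above days 4 and 6, which overlapped. It was 13.5-fold lower at day 6 than at day 0 (log2 -3.75 ± 0.20, edgeR adjusted p = 6.63e-20). Of the 8 subunits in the group, 4 were tested, and these were lower at day 6 than at day 0, beside 37.5% of all genes. At such levels a gene can reach the test through day 0 alone. Itgae averaged 2.45 ± 0.84, 0.843 ± 0.33, 1.31 ± 0.49 and 1.003 ± 0.42 CPM at days 0, 2, 4 and 6, Itgal 2.44 ± 0.43, 1.89 ± 0.49, 1.31 ± 0.56 and 0.550 ± 0.18 CPM at days 0, 2, 4 and 6, and Itgam, which shares 68.7% of its exon length with the read-through gene model Gm49368 and is uncertain, 1.81 ± 0.40, 1.80 ± 0.54, 0.592 ± 0.17 and 0.215 ± 0.21 CPM at days 0, 2, 4 and 6. Itgb2, without which Itgal and Itgam are not carried to the cell surface, had 13 to 26 counts per day and was not tested. Itgad, Itgax and Itgb2l had at most 2 counts on any day.

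Leukocyte markers gave a mixed reading beside Itgb7. Ptprc, which marks nearly all leukocytes, had no count in any of the 12 libraries, and 8 of 12 markers were under 1 CPM on every day. The 12 summed to 54.7 to 59.2 CPM in the day 0 libraries, 13.1 to 14.6 at day 2, 17.8 to 19.8 at day 4 and 40.1 to 41.8 at day 6. Laptm5 averaged 1.38 ± 0.38 CPM at day 6 and 32.2 ± 2.8 CPM at day 0, and Coro1a 0.847 ± 0.21 CPM at day 6 and 14.1 ± 1.2 CPM at day 0, and both were lower at day 6. Cd68 averaged 34.7 ± 1.1 CPM at day 6 and 8.70 ± 0.85 CPM at day 0, and Csf1r 2.25 ± 0.54 CPM at day 6 and 0.122 ± 0.13 CPM at day 0, and both were higher. Of the 12, only these 4 were tested. The part of leukocytes in the Itgb7 values was not tested.

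The 4 genes that match by symbol alone averaged at most 42.1 CPM on any day. Itgb1bp1, whose product binds the β1 tail, averaged 38.1 ± 0.31, 42.1 ± 3.6, 41.2 ± 1.5 and 35.9 ± 2.1 CPM at days 0, 2, 4 and 6. Itgb3bp, a centromere protein, averaged 14.03 ± 0.65, 15.4 ± 0.75, 12.1 ± 0.22 and 9.60 ± 1.2 CPM at days 0, 2, 4 and 6 and was lower at day 6 than at day 0 (log2 -0.53 ± 0.12, edgeR adjusted p = 7.86e-05). Exons of both overlap those of genes on the other strand. Itgb1bp2 stayed between 0.818 and 1.28 CPM, and Itgbl1 had at most 4 counts on any day and was not tested.

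Partners of these genes were read from lists of general knowledge. Those lists, and that of the dystrophin complex above, were chosen with earlier results of these data known, so their shares are description only. A listed gene with few counts on some days can reach the test through the other days alone. Of the basement membrane collagens, 5 were tested, 3 higher and 1 lower at day 6 than at day 0, beside 39.4% higher and 37.5% lower among all genes. Col4a1, the type IV collagen chain that laminin sheets are tied to, averaged 465 ± 14, 1338 ± 31, 3380 ± 28 and 5365 ± 244 CPM at days 0, 2, 4 and 6 and was higher at day 6 than at day 0 (log2 3.53 ± 0.049, edgeR adjusted p = 4.64e-39). Col4a2, its partner in the trimer, averaged 257 ± 2.4, 758 ± 34, 2097 ± 43 and 3058 ± 118 CPM at days 0, 2, 4 and 6 (log2 3.57 ± 0.049, edgeR adjusted p = 4.64e-39). Col18a1 was highest at day 2, with 216 ± 5.9, 347 ± 3.5, 206 ± 6.9 and 182 ± 6.9 CPM at days 0, 2, 4 and 6, and was lower at day 6 than at day 0 (log2 -0.25 ± 0.045, edgeR adjusted p = 4.47e-06). Of 23 other basement membrane proteins, 16 were higher (69.6%) and 6 lower (26.1%) at day 6 than at day 0, with a median log2 of 1.62, beside 39.4% higher and 37.5% lower among all genes and a median of 0.017. Sparc, a collagen IV-binding protein of parietal endoderm, averaged 313 ± 3.1, 1053 ± 36, 2674 ± 26 and 3822 ± 49 CPM at days 0, 2, 4 and 6 (log2 3.61 ± 0.047, edgeR adjusted p = 7.62e-40). Pxdn, the peroxidase that cross-links type IV collagen, averaged 51.6 ± 0.27, 108 ± 5.6, 127 ± 3.8 and 159 ± 2.1 CPM at days 0, 2, 4 and 6 (log2 1.62 ± 0.052, edgeR adjusted p = 8.36e-27). Col4a1, Col4a2 and Sparc were also counted among the endoderm markers above.

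Of 23 other ligands of integrins, 17 were higher (73.9%) and 6 lower (26.1%) at day 6 than at day 0, beside 39.4% higher and 37.5% lower among all genes. Some of the 17 had no count at day 0. Such a gene can reach the test through the later days alone, and then only a higher call is open to it. Fn1, fibronectin, the ligand of the receptor that Itga5 helps to form, was lower, with 1417 ± 12, 774 ± 12, 370 ± 13 and 369.5 ± 11 CPM at days 0, 2, 4 and 6 (log2 -1.94 ± 0.043, edgeR adjusted p = 4.00e-32). Icam1, a ligand of the leukocyte integrins, averaged 106 ± 3.4, 12.6 ± 0.92, 14.8 ± 3.4 and 22.1 ± 0.61 CPM at days 0, 2, 4 and 6 and was lower at day 6 (log2 -2.26 ± 0.076, edgeR adjusted p = 1.66e-25). Col1a2 and Col3a1, fibrillar collagens of fibroblasts that also count among the fibroblast markers above, averaged 49.8 ± 1.6 and 79.5 ± 6.0 CPM at day 6, and 1.88 ± 0.21 and 0.624 ± 0.17 CPM at day 0.

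On the inner face of the membrane, 42 genes of focal adhesions and integrin activation were tested, of which 24 were higher (57.1%) and 12 lower (28.6%) at day 6 than at day 0, beside 39.4% higher and 37.5% lower among all genes (median log2 0.28, beside 0.017 for all genes). Ilk, the pseudokinase that binds the β1 tail, averaged 9.49 ± 0.91, 46.8 ± 2.9, 55.1 ± 1.9 and 55.7 ± 2.9 CPM at days 0, 2, 4 and 6 (log2 2.56 ± 0.089, edgeR adjusted p = 9.71e-26). Its partner Parva, which ties it to actin, averaged 15.3 ± 1.3, 57.9 ± 1.8, 71.1 ± 2.5 and 105 ± 0.52 CPM at days 0, 2, 4 and 6 (log2 2.78 ± 0.069, edgeR adjusted p = 1.02e-30). Zyx, an adhesion protein under tension, averaged 11.2 ± 1.4, 26.2 ± 1.7, 51.8 ± 2.7 and 73.8 ± 2.9 CPM at days 0, 2, 4 and 6 (log2 2.73 ± 0.083, edgeR adjusted p = 1.31e-27). Tns1, a tensin that also binds integrin tails, was lower, with 54.9 ± 1.1, 15.5 ± 0.69, 11.2 ± 2.4 and 13.1 ± 1.0 CPM at days 0, 2, 4 and 6 (log2 -2.06 ± 0.090, edgeR adjusted p = 1.94e-22).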

How the data were processed

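The authors deposited raw counts for each gene, made with featureCounts 2.0.1, HISAT2 2.1.0, FastQC 0.11.7 and the mm10 build, per the submitters' processing notes, which give neither role nor order and also name DESeq2. Strandedness and the annotation release are not given in the sources used here. Of 55335 gene IDs, 55154 matched GENCODE release M21, from which coordinates and merged exon lengths were taken. The version of the ID matched too for 54587, and for 44 of the 47 genes followed here. It did not match for Itga6, Hspg2 and Lama2, so the exon lengths used for them may differ from those counted.

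The counts were fitted with edgeR 4.0.16 in R 4.3.3: filterByExpr by day, TMM scaling and a robust quasi-likelihood fit of all 12 libraries with 1 coefficient per day, two-sided tests and Benjamini-Hochberg adjustment over all genes tested. Levels are TMM-scaled CPM. CPM per kb of exon serves only to set genes side by side. Against a day with no count, a fold is a bound set by a floor of 3 counts over the libraries of that day, and with 1 to 3 counts a ratio has its exact 95% counting interval. Intervals and floors cover counting error only.

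Values in all libraries are given for genes that reach 10 CPM on some day and either rank among the 12 highest members on a day or differ 3-fold between day means, which gave 16. From each list, up to 4 genes with at least 10 CPM and the smallest F-test p could be named. The members and lists were chosen with earlier results of these data known. The values of a few of these genes are not reported here, but they are included in the counts.

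Alternatives were median-ratio factors, library size alone, no filter, DESeq2 1.42.0, a replicate block, a fit of only the 6 libraries compared, and each library left out in turn. The procedure was tested on simulated data in which few genes changed, all upward and at day 2 only. Scaling where most genes change in both directions was not tested that way. Replicates differed by more than sampling noise (chi-square over degrees of freedom 1.51 to 3.80), so no library pair was counted as 1 sample. Promoter windows are RefSeq's (GRCm38.p6). Figures were drawn with matplotlib 3.10.9.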

Additional observations from a re-analysis of the deposited data

How the results depend on the processing

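Of 197 recomputed counts of changed genes, 194 stayed within 1.5 times the reported count. The exceptions all concern the genes lower at day 6 than at day 4, reported as 5: DESeq2 gave 2, and leaving out single libraries gave 2 to 5. For the same comparison, the count of higher genes was 18 to 22 with single libraries left out. In the other comparisons those ranges were 12 to 14 higher and 16 to 17 lower at day 2 against day 0, 13 to 15 and 15 to 17 at day 4 against day 0, 16 to 18 and 16 to 16 at day 6 against day 0, and 6 to 10 and 9 to 11 at day 4 against day 2. Same-numbered libraries did not deviate together over all genes tested (correlations of -0.043 to 0.042). Counting noise in genes with few counts enters these values, so they cannot decide whether the numbers pair the libraries. With a replicate block, 18 genes were higher and 16 lower at day 6 against day 0, as without it, and 37 differed over the 4 days.

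Of 2712 recomputed log2 changes of single genes, 2595 kept direction and call, 99 lost the call, 8 gained it and 10 turned sign, none of which was a called change. Agrn at day 4 against day 2 (-0.0090 as reported) was 0.0010 with median-ratio factors and 0.0010 with DESeq2, 0.012 and 0.024 without day 2 replicate 1 or 3 and 0.0070 without day 4 replicate 2, in a range of -0.059 to 0.024 over single libraries left out. Agrn at day 6 against day 0 was 0.069 with library size alone and 0.0020 with no filter. Itgb4 at day 6 against day 4 was -0.057 without day 4 replicate 3 and -0.048 without day 6 replicate 1, in a range of -0.057 to 0.135. Lamb2 at day 4 against day 0 was 0.050 with library size alone. That scaling moved the median log2 change of all genes by 0.132, 0.128 and 0.104 at days 2, 4 and 6 against day 0. The causes were not tested. Totals of 6945900 to 13266962 counts limit what can be said of the 7 genes not tested.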

Other observations

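Genes that cut basement membrane proteins were counted apart from those above. This list and the next ones were also chosen with earlier results of these data known. Of 14 tested, 13 were higher (92.9%) and 1 lower (7.14%) at day 6 than at day 0, beside 39.4% higher and 37.5% lower among all genes, with a median log2 of 1.28, beside 0.017 for all genes. Mmp15, a membrane-bound metalloproteinase, averaged 15.02 ± 2.1, 97.5 ± 4.3, 86.9 ± 0.65 and 146 ± 0.79 CPM at days 0, 2, 4 and 6 (log2 3.27 ± 0.068, edgeR adjusted p = 3.82e-33 at day 6 against day 0). Plat, the tissue plasminogen activator and a gene of parietal endoderm, averaged 2.06 ± 0.59, 25.8 ± 0.93, 75.1 ± 4.9 and 98.5 ± 3.8 CPM at days 0, 2, 4 and 6 (log2 5.55 ± 0.11, edgeR adjusted p = 9.21e-34). Adamts1, a secreted protease that cleaves proteoglycans, averaged 0.942 ± 0.31, 3.58 ± 0.58, 16.2 ± 2.5 and 50.8 ± 0.92 CPM at days 0, 2, 4 and 6 (log2 5.73 ± 0.16, edgeR adjusted p = 1.05e-28), and Ctsb, a lysosomal protease, averaged 44.5 ± 1.4, 78.9 ± 4.7, 120.2 ± 5.1 and 181 ± 8.8 CPM at days 0, 2, 4 and 6 (log2 2.03 ± 0.057, edgeR adjusted p = 6.82e-29).

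Of 13 tested tetraspanins and other integrin partners, 8 were higher (61.5%) and 3 lower (23.1%) at day 6 than at day 0, beside 39.4% higher and 37.5% lower among all genes. Bsg, a partner of the laminin-binding integrins, averaged 784 ± 33, 643 ± 31, 889 ± 9.2 and 1271 ± 35 CPM at days 0, 2, 4 and 6 (log2 0.70 ± 0.044, edgeR adjusted p = 3.32e-17), and Cd81, a tetraspanin, averaged 51.6 ± 1.0, 26.2 ± 2.9, 22.5 ± 0.83 and 38.03 ± 0.55 CPM at days 0, 2, 4 and 6 and was lower (log2 -0.44 ± 0.069, edgeR adjusted p = 4.07e-07). Of 12 laminin and proteoglycan receptors other than integrins, 6 were higher (50%) and 3 lower (25%), beside 39.4% higher and 37.5% lower among all genes. Bcam, a receptor for the laminin α5 chain, averaged 58.6 ± 4.4, 20.9 ± 1.7, 10.4 ± 0.86 and 13.7 ± 2.5 CPM at days 0, 2, 4 and 6 and was lower at day 6 than at day 0 (log2 -2.09 ± 0.091, edgeR adjusted p = 3.48e-22), as Lama5 was. Lrp4, the agrin receptor, averaged 22.9 ± 1.3, 33.7 ± 1.9, 55.1 ± 2.7 and 102 ± 3.0 CPM at days 0, 2, 4 and 6 and was higher (log2 2.15 ± 0.066, edgeR adjusted p = 1.78e-27).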
